A study of Arabidopsis thaliana with 12 samples.

Results

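AT1G06730, a gene for a carbohydrate kinase of the pfkB type, and AT3G06200, a gene for a guanylate kinase, stood far higher in Arabidopsis thaliana plants treated with proline than in plants given water. They are 2 of the 691 genes with an array probe of their own. Both were chosen by their large proline-to-water difference in these same intensities, so that difference is described here with no test. Each is measured by 1 probe that the platform annotation pairs with that gene alone, and the probe sequences were not examined.

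Total RNA of wild-type plants, ecotype Wassilevskija, was measured on an expression array. A set of 6 samples had received 100 mM proline for 6 h, which the labels describe as reaching toxic cellular levels, and another 6, of the same wild type, had received water for a time the labels do not state. The labels state no organ, age or growth conditions. Nor is it stated that the replicates came from separate plants, so p-values cover only the scatter among the samples at hand, part of which may be technical.

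Kinases of the pfkB type take their name from a bacterial phosphofructokinase. The family includes fructokinases, ribokinases and adenosine kinases, which move a phosphate from ATP to a sugar or to the sugar part of a nucleoside. Guanylate kinase phosphorylates GMP to GDP, the step that leads to GTP for RNA synthesis, translation and signalling, and its counterpart in rice, in plastids and mitochondria, is needed for chloroplast development in young leaves. Proline is an osmolyte and a store of nitrogen that plants make under drought and salt and break down in mitochondria, and a large excess is harmful to them.

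The deposited intensities run from 0 to 100 on a linear scale whose meaning the sources used here do not give. The median probe of a sample lay between 0.213 and 0.361 in proline and between 0.171 and 0.188 in water, so the samples were brought to a common distribution by quantile normalization. Unless the deposited values are named, levels below are quantile-normalized intensities. Of 3097 probes tested with limma across the 12 samples, 38.0% passed a Benjamini-Hochberg adjusted p of 0.05, 17.1% higher and 20.9% lower with proline. That split depends on the scaling, since without normalization 1191 probes passed as higher and 178 as lower. Within a group, sample 1 resembled 2, 3 resembled 4, and 5 resembled 6; averaging each such pair first left 530 probes passing in place of 1176. An organ could not be checked, since 1 of 10 leaf marker genes and 0 of 8 root marker genes had a probe of their own. That gene, LHB1B2, a light-harvesting protein with close copies, averaged 9.51 ± 0.52 in proline and 13.2 ± 2.4 in water (SD, n = 6 each).

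The guanylate kinase gene AT3G06200 was at 5.43, 5.63, 5.14, 5.72, 5.34 and 5.63 in proline samples 1 to 6. In water samples 1 to 6 the same probe was at 1.12, 1.18, 1.004, 0.991, 0.991 and 1.04. The groups lay far apart, and within each the 6 values were close together. The mean was 5.48 ± 0.22 in proline and 1.05 ± 0.08 in water (SD, n = 6 each), a 5.20-fold difference of the log2 means. The lowest proline sample stood 4.36-fold above the highest water sample. In RNA of whole plants or organs, more cells with the transcript and more transcript per cell cannot be told apart.

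The sugar kinase gene AT1G06730 was at 11.3, 9.26, 2.07, 10.3, 10.3 and 11.5 in proline samples 1 to 6. In water samples 1 to 6 it was at 0.635, 0.661, 0.284, 0.792, 0.599 and 0.778. Proline sample 3 was far below the other proline samples, and water sample 3 was likewise the lowest of its group, while the groups still did not overlap. The mean was 9.13 ± 3.55 in proline and 0.62 ± 0.18 in water (SD, n = 6 each). The difference of the log2 means was 13.5-fold, and the lowest proline sample stood 2.62-fold above the highest water sample. Groups that did not overlap, with proline higher, were found for 12.6% of the 620 tested probes with 1 gene; the choice of these genes used that contrast, so nothing is read from it.

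**Figure D1:**
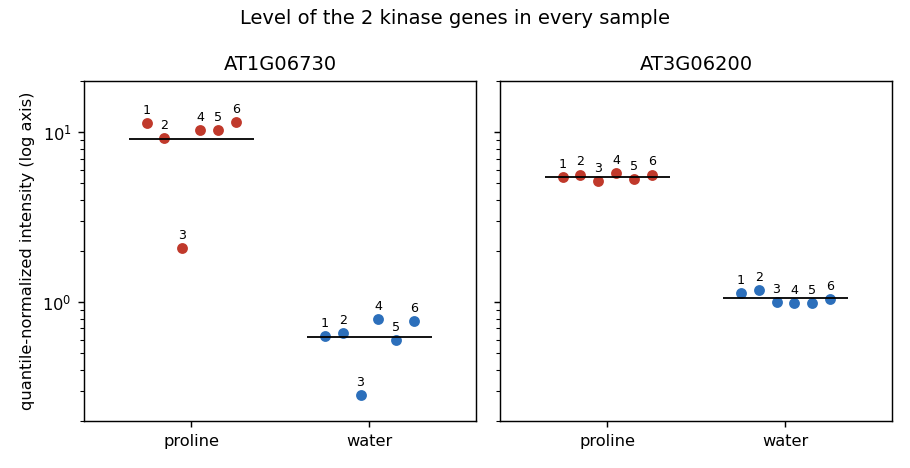
Quantile-normalized intensity (log axis) of AT1G06730 and AT3G06200 in the 6 proline and 6 water samples. Each point is a sample with its replicate number, and the line is the group mean. For AT1G06730 sample 3 lies lowest in both groups, at 2.07 in proline and 0.284 in water, whereas all AT3G06200 samples lie near their group mean.

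The same picture held in the values as deposited. AT1G06730 read 11.3, 10.6, 2.11, 10.04, 11.4 and 11.98 in proline samples 1 to 6, against 0.497, 0.531, 0.209, 0.628, 0.492 and 0.658 in water samples 1 to 6. AT3G06200 read 5.92, 6.30, 4.68, 5.25, 5.84 and 6.23 in proline, against 0.963, 1.01, 0.794, 0.804, 0.849 and 0.898 in water. The highest of these values, 11.98, was far below the top of the scale. The deposited differences of log2 means were 17.7-fold for AT1G06730 and 6.42-fold for AT3G06200. In the deposited values the median log2 difference of all tested probes was 0.41, where quantile normalization left -0.03. Relative to that median the log2 difference of AT1G06730 was 3.73 in the deposited values and 3.78 after quantile normalization, and that of AT3G06200 was 2.27 and 2.41.

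When each sample was scaled by its median, the proline samples of AT3G06200 fell into 2 levels. There proline samples 3 and 4 were at 2.60 and 3.01, while the other proline samples ran from 4.95 to 5.80, and the water samples ran from 0.906 to 1.18. The groups stayed apart, and the difference of log2 means was 4.32-fold. Proline samples 3 and 4 had the highest sample medians of the series, up to 0.361, so that dividing by the median lowered every probe in them.

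The 2 genes differed in how much their samples spread. In proline the standard deviation of AT3G06200 on the log2 scale was 0.06, and 97.7% of the 3097 tested probes had a larger one. For AT1G06730 it was 0.96, and only 5.75% of the probes had a larger one. In water the standard deviations were 0.11 for AT3G06200 and 0.55 for AT1G06730, with 87.4% and 12.3% of the probes above them. The median over all tested probes was 0.32 in proline and 0.25 in water. The small spread of AT3G06200 in proline depended on the scaling. Its standard deviation there was 0.17 in the values as deposited, 0.12 under cyclic loess and 0.50 under median centring. For AT1G06730 the same 3 scales gave 0.98, 0.95 and 1.25.

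Nearly all of the spread of AT1G06730 lay in sample 3. Without sample 3 in both groups, left out after the data were seen, AT1G06730 averaged 10.5 ± 0.9 in proline and 0.693 ± 0.087 in water (SD, n = 5 each), a 15.3-fold difference of the log2 means. AT3G06200 then averaged 5.55 ± 0.16 in proline and 1.06 ± 0.08 in water (SD, n = 5 each), a 5.22-fold difference of the log2 means. The guanylate kinase gene was thus almost the same with and without sample 3.

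Replicate numbers 1 to 6 occur in both groups. Proline and water samples of the same number deviated from their group means together across the tested probes, so each proline sample was also set against the water sample of its number. For AT1G06730 proline exceeded water 17.8-fold, 14.0-fold, 7.30-fold, 13.0-fold, 17.2-fold and 14.8-fold in numbers 1 to 6. Number 3 was the lowest and stood apart from the other numbers, although both of its samples were low. For AT3G06200 the ratios were 4.83, 4.78, 5.12, 5.77, 5.39 and 5.41, with the highest only 1.21 times the lowest. In the deposited values the ratios of AT1G06730 ran from 10.1 in number 3 to 23.2, and those of AT3G06200 from 5.90 in number 3 to 6.93. Under median centring the ratios of AT3G06200 spread more, from 2.80 in number 3 to 6.07. Those of AT1G06730 then ran from 4.79 in number 3 to 20.4, with number 4 also low at 7.86 and the remaining numbers at 14.6 or more. In every number, on each of these scales, the ratio of AT1G06730 was above that of AT3G06200.

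**Figure D2:**
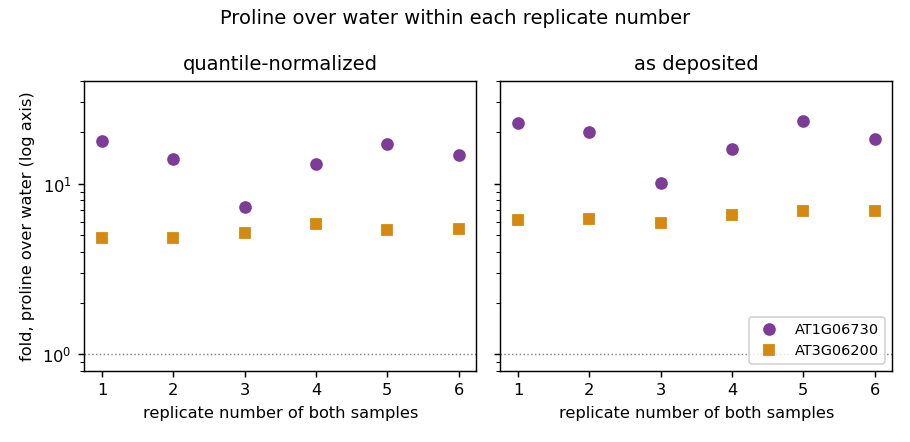
Ratio of the proline to the water sample of the same replicate number (log axis) for AT1G06730 and AT3G06200, in quantile-normalized values on the left and in deposited values on the right. The dotted line marks equal levels. The ratio of AT1G06730 is lowest in number 3, at 7.30 after quantile normalization and 10.1 as deposited, and that of AT3G06200 stays between 4.78 and 6.93 on the 2 scales.

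Samples 3 and 4 of a group resembled each other at most probes, which made the low sample 3 of AT1G06730 stand out. The absolute log2 difference between them had a median of 0.16 in proline and 0.15 in water over the 3097 tested probes. For AT1G06730 sample 3 minus sample 4 was -2.32 in proline and -1.48 in water. Only 13 probes in proline and 56 in water, this gene's own included, differed by as much or more in either direction. Samples 3 and 4 were compared because an earlier look at these data had shown the low proline sample of AT1G06730. Nothing is therefore read from how few probes did so, here or below. For AT3G06200 the difference was -0.15 in proline and 0.02 in water, close to that of the typical probe.

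The probe of AT1G06730 was 1 of 11 probes (0.355% of those tested) at which sample 3 was at least 2-fold below sample 4 in both groups; at 8 probes sample 3 was at least 2-fold above it in both. The next probe in the table's numbering was another of the 11. That probe, which the annotation pairs with several genes and which was singled out after its values were seen, read 0.196 in proline sample 3 while the remaining proline samples read 0.546 to 0.832. In water it read 0.154 in sample 3 and 0.557 to 0.634 in the remaining samples. The probe numbered just before AT1G06730 did not share this, with log2 differences between samples 3 and 4 of 0.82 in proline and -0.09 in water. Near AT3G06200, whose own samples 3 and 4 were alike, the probe 3 numbers before it had differences of -3.35 in proline and -2.95 in water, and the probe numbered just after it had 0.12 in proline and 0.08 in water. The sources used here do not say how the numbers lie on the array, and the part of spot position in the low values was not tested.

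**Figure D3:**
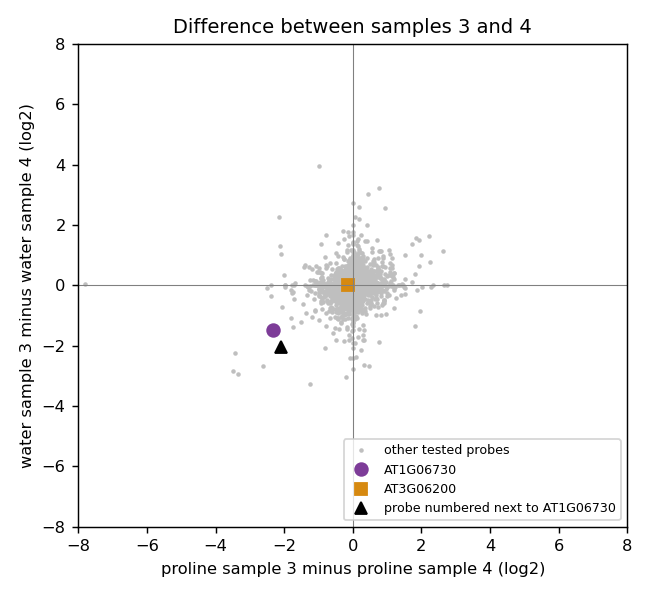
Log2 difference of sample 3 minus sample 4 in proline (horizontal) and in water (vertical) for each of the 3097 tested probes. AT1G06730, at -2.32 and -1.48, and the probe numbered next to it, at -2.09 and -2.04, lie in the lower left, apart from the bulk of probes around 0, where AT3G06200 lies.

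Among probes with 1 gene, the likeness of a profile to that of each kinase gene was measured as the root mean square difference of log2 profiles over the 12 samples, each profile centred on its own mean. This distance counts the size of the change as well as its shape, and it is a description with no test. The nearest profiles to AT3G06200 among 619 others were those of AT2G36480, AT5G26850 and AT5G06010, at distances of 0.20, 0.23 and 0.23, where the median distance was 1.25. AT2G36480 averaged 1.16 ± 0.12 in proline and 0.246 ± 0.031 in water, AT5G26850 0.763 ± 0.104 in proline and 0.153 ± 0.028 in water, and AT5G06010 3.95 ± 0.82 in proline and 0.844 ± 0.096 in water (SD, n = 6 each). All 3 thus had proline above water by nearly as much as AT3G06200, with log2 differences of 2.24, 2.32 and 2.21 against its 2.38. The distance that chose them counts this difference, so nothing is read from their shared rise. Under median centring and in the values as deposited only 1 of the 3 stayed among the nearest 3.

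The nearest profiles to AT1G06730 were farther off. They were those of AT1G12800 at 0.72, AT4G18180 at 0.75 and AT1G76450, which encodes a PsbP-domain protein, at 0.77, where the median distance was 2.04. Their differences of sample 3 minus sample 4 ran from -0.26 to 0.16 in proline and from -0.21 to 0.50 in water, smaller than those of AT1G06730. Sample 3 was still the lowest of both groups for AT1G76450, at 3.02 in proline and 0.399 in water. For AT1G12800 sample 3 was the lowest in proline, at 4.42. Of the 3097 tested probes, 124 had sample 3 lowest in both groups, 25 of them probes with 1 gene. The distance that chose the nearest genes includes sample 3 of both groups, so nothing is read from a shared low sample 3. AT3G06200 was the sixth nearest to AT1G06730, at 0.97, and AT1G06730 ranked 98 among the profiles nearest to AT3G06200. With zeros treated as missing in place of a floor, 1 of the 3 genes stayed among the nearest 3 of AT1G06730.

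**Figure D4:**
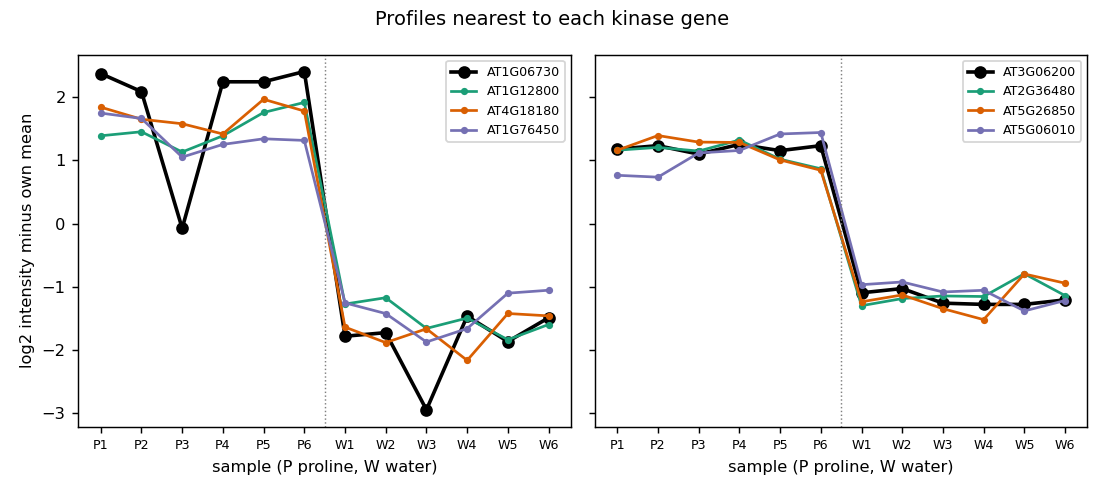
Log2 intensity minus each gene's own mean over the 12 samples, for AT1G06730 (left) and AT3G06200 (right) in black with the 3 nearest genes in colour. P1 to P6 are proline and W1 to W6 water samples. The nearest genes of AT3G06200 lie within a distance of 0.23 of it, whereas AT1G06730 dips in sample 3 of both groups by more than its nearest genes do.

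Related genes were taken from lists of their families and pathways. Of 99 other genes in 6 lists (pfkB-type kinases, other sugar and sugar phosphate kinases, nucleotide kinases, purine synthesis and salvage, guanosine tetraphosphate synthesis, and proline metabolism), 4 had a probe of their own and all 4 were tested. None of the 4 rose and 1 fell, where over the 620 tested probes with 1 gene 19.0% were called higher and 18.2% lower (limma). At an unadjusted limma p under 0.05, likewise 0 of the 4 were higher and 1 was lower. Their median log2 difference was -0.25, against 0.00 over all tested probes with 1 gene. No other nucleotide kinase, and no gene of guanosine tetraphosphate synthesis or proline metabolism, had a probe of its own, so those genes were not analysed here.

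Neither of the 2 measured relatives of the sugar kinase gene passed the test. AT1G17160, the plastid ribokinase, averaged 2.33 ± 0.34 in proline and 2.31 ± 0.36 in water (SD, n = 6 each), a log2 difference of 0.01 ± 0.13 (SE; limma adjusted p = 0.949). Its proline samples 1 and 2, at 2.66 and 2.70, were above water samples 1 and 2, at 2.06 and 2.04, while proline samples 3 to 6, from 1.91 to 2.39, were below the water samples of their number, at 2.04 to 2.91. The log2 difference of AT1G17160 was 0.20 in the deposited values and -0.37 under median centring, and it passed on neither scale. AT1G50390, another member of the pfkB family, averaged 0.730 ± 0.152 in proline and 0.895 ± 0.106 in water, with a log2 difference of -0.31 ± 0.14 (SE; limma adjusted p = 0.111). It was lower in proline in all 6 numbers, but the groups overlapped, from 0.545 to 0.942 in proline and from 0.771 to 1.03 in water. Without proline sample 4 it passed (log2 difference -0.40, adjusted p = 0.043), and in the deposited values its log2 difference was 0.19, or -0.23 relative to the median of all probes.

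PRK, the phosphoribulokinase of the Calvin cycle, averaged 1.80 ± 0.30 in proline and 2.06 ± 0.34 in water (SD, n = 6 each; log2 difference -0.19, limma adjusted p = 0.305). Here too numbers 1 and 2 went the other way, with 2.21 and 2.15 in proline against 1.69 and 1.75 in water. In numbers 3 to 6 PRK was lower in proline, at 1.51 to 1.67, than in water, at 1.93 to 2.49. Its log2 difference was 0.01 in the deposited values and -0.56 under median centring, and it passed on neither scale.

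The gene that fell was AT1G31220, which encodes the glycinamide ribonucleotide transformylase of purine synthesis, a pathway that ends in AMP and in GMP, the substrate of guanylate kinase. It was at 0.191, 0.189, 0.251, 0.271, 0.181 and 0.163 in proline samples 1 to 6. In water samples 1 to 6 it was at 0.344, 0.381, 0.385, 0.307, 0.353 and 0.354. Every proline sample was below every water sample. The log2 difference was -0.79 ± 0.13 (SE; limma adjusted p = 0.00053), and when the paired samples were averaged first, leaving 3 values a group, the adjusted p was 0.039. In the deposited values, where most probes were higher with proline, it was -0.20 and did not pass (adjusted p = 0.539), which is -0.61 from the median difference of all probes; after quantile normalization it was -0.76 from that median.

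**Figure D5:**
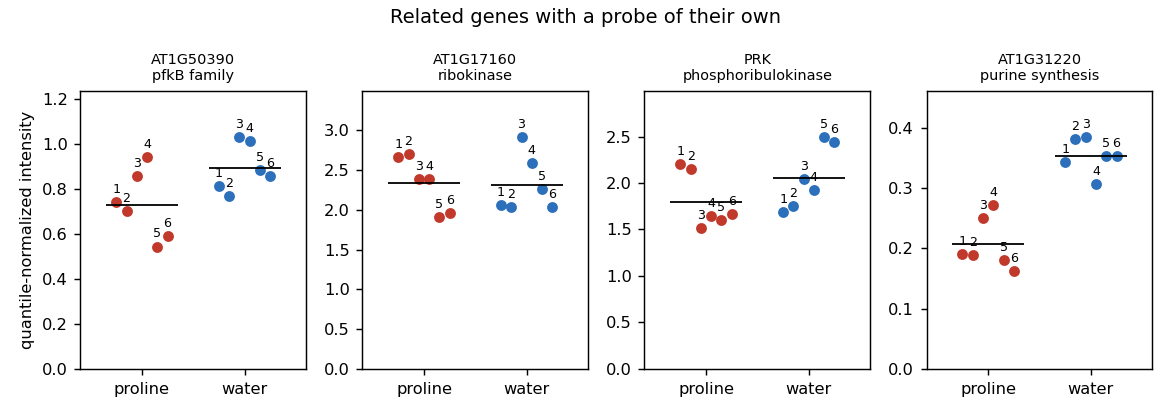
Quantile-normalized intensity of the 4 related genes in the 6 proline and 6 water samples, each point labelled with its replicate number and each line a group mean. AT1G31220 is lower in all proline samples, at 0.163 to 0.271, than in all water samples, at 0.307 to 0.385, and the groups of AT1G50390, AT1G17160 and PRK overlap.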

How the data were processed

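The deposited table holds intensities for 3439 probes in 12 samples, on a linear scale from 0 to 100 as read from the values. How the authors scanned, corrected and scaled the arrays is not given in the sources used here. Precision is limited by the 12 arrays. GEO's platform annotation, which can be old, pairs 692 probes with 1 gene (690 matched to RefSeq names of TAIR10.1) and 870 with several, from which no gene is named, and leaves 1877 unnamed. Values were quantile-normalized, raised to a floor of 0.0377 (the 5th percentile of the positive deposited values) and log2-transformed. The 342 probes at the floor everywhere were left out. The 2 groups were compared with limma 3.58.1 under R 4.3.3 (lmFit, eBayes, two-sided, no block), with Benjamini-Hochberg adjustment over 3097 probes, and the fit was tested on simulated data. The simulated samples were independent of each other, so that test does not cover the resemblance between samples seen here.

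Groups and replicate numbers come from the sample titles. Deviations of same-numbered samples correlated at 0.16 to 0.47, each over the limit of 0.1 set for calling the numbers a pairing. Each was above that number's highest correlation with a different number, at 0.083 to 0.174, though some of these also passed 0.1. The p-values reported leave this pairing out, and the fit with it as a block is an alternative. The 2 genes and the gene lists were chosen with earlier results of these data known. Genes named are these 2, the 3 nearest profiles of each, and the list genes with their own probe. Alternatives were median centring, deposited values, cyclic loess, 2 other floors, no dim probes, a replicate block, means of pairs, and samples left out.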

Additional observations from a re-analysis of the deposited data

Results flagged for a closer look

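Among 26 groups of 6 samples, 2 for each named gene, 2 held a sample far from the other 5. Chance gives about 1 in 20 for independent samples, but samples here resembled each other in pairs. The low proline sample of AT1G06730 was known from an earlier look at these data. The nearest genes were chosen by their profiles in these same samples, so nothing is read from the count. For AT1G06730 the far sample was proline sample 3, at 2.07, with the remaining proline samples at 9.26 to 11.5. Water sample 3 of this gene, at 0.284 with the remaining water samples at 0.599 to 0.792, only just stayed within the limit. For AT2G36480, whose profile was nearest to that of AT3G06200, the far sample was water sample 5, at 0.306, with the remaining water samples at 0.216 to 0.241.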

How the results depend on the processing

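Over 22 alternatives the log2 difference of AT1G06730 ran from 3.52 to 4.29 and that of AT3G06200 from 2.11 to 2.68. Leaving out 1 sample gave 3.52 (without water sample 3) to 4.21 (without proline sample 3) for AT1G06730 and 2.35 to 2.43 for AT3G06200. AT3G06200 moved by more than its own small spread under median centring (2.11), in the values as deposited (2.68) and under cyclic loess (2.54). The 1176 probes that passed became 530 with the means of pairs (260 higher, 270 lower). In the values as deposited 1191 were higher and 178 lower, against 529 and 647 after quantile normalization. Leaving out 1 sample gave 1076 to 1135 calls, 490 to 516 of them higher and 583 to 627 lower. With the replicate block 1282 probes passed, and the block changed no call among the related genes (AT1G31220 adjusted p = 0.0037). Of these 4 genes 1 passed; the count was 2 under median centring and without proline samples 3 and 4, where AT1G50390 also passed, 0 in the values as deposited (0 also at an unadjusted limma p under 0.05), and 1 to 2 with 1 sample left out. The adjusted p of AT1G31220 ran from 3.8e-05 to 0.539 over its alternatives, and that of AT1G50390 from 0.014 to 0.407. The distance between the 2 kinase genes ran from 0.81 to 1.01, from 0.86 to 1.01 with 1 sample left out. With 1 probe a gene, nothing here tells the gene's transcript from other RNA that the probe may bind.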
